A study of Homo sapiens with 9 samples.

Results

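The SWI/SNF chromatin remodeler genes described here are 10 named subunit genes, ARID1A, ARID1B, ARID2, SMARCA2, SMARCA4, SMARCB1, SMARCC1, SMARCC2, SMARCD3 and PBRM1. They were taken by gene name from the 62666 genes of the gene tables, by a rule that uses no measured value, although earlier results of these data were known when they were chosen. All 10 were found, and all 10 passed the filter on low counts that left 17910 genes for testing. Relative to MCF10A, MCF10Ca1a cells had more SMARCA4 RNA and much less ARID1B, ARID2 and SMARCD3 RNA. MCF10AT1 cells had less ARID1A, ARID1B and PBRM1 RNA than MCF10A.

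Polyadenylated RNA was sequenced from 3 human mammary epithelial cell lines of a single lineage, with 3 libraries per line and 9 in all, to follow expression along breast cancer progression. MCF10A is a non-tumorigenic line, MCF10AT1 was derived from it by introducing an activated HRAS gene, and MCF10Ca1a is a tumour-forming line derived from MCF10AT1. All lines grew in DMEM/F12 medium with insulin, epidermal growth factor, hydrocortisone and cholera toxin. MCF10A and MCF10Ca1a received 5% horse serum and MCF10AT1 received 2.5%, so that the serum level and the MCF10AT1 line cannot be told apart. Each stage is represented by a single line, so differences belong to these lines. Nothing states that the libraries of a line came from separate cultures, and p-values therefore measure the spread between these libraries, which may be technical. In bulk RNA, fewer cells expressing a gene and less RNA per cell cannot be told apart.

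SWI/SNF complexes use the energy of ATP to slide or evict nucleosomes and so open enhancers and promoters. Each complex has a single ATPase, SMARCA4 (also called BRG1) or SMARCA2 (BRM), with SMARCC and SMARCD subunits in its core. SMARCB1 is a core subunit of canonical BAF and PBAF complexes but not of noncanonical BAF. Canonical BAF complexes add ARID1A or ARID1B, PBAF complexes add ARID2 and PBRM1, and noncanonical BAF complexes add BRD9 with BICRA or BICRAL. Several of these genes are recurrently mutated in cancer, ARID1A among them in breast tumours.

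The MCF10Ca1a libraries were the shallowest, with totals of 32.9 to 35.2 M counts, while the 6 libraries of the other lines ran from 62.9 to 69.5 M. Of 7 epithelial markers, 6 in MCF10A and 7 in each of the other lines had at least 10 counts in every library. Of 4 immune markers, CD3E was at 0 in every library, and the summed level of the list was 21.0 to 26.4 CPM in MCF10A, 7.96 to 8.86 in MCF10AT1 and 40.8 to 44.7 in MCF10Ca1a. The 3 endothelial markers summed to 2.82 to 3.32, 3.23 to 4.17 and 42.1 to 49.4 CPM, with CDH5 at 0 in MCF10A and MCF10Ca1a. The 6 fibroblast markers summed to 13.2 to 14.2, 33.6 to 34.8 and 5.28 to 5.95 CPM, and the 2 adipocyte markers to 0.0287 to 0.0927, 0.151 to 0.290 and 8.46 to 8.83. The epithelial list summed to 3823 to 4613, 5943 to 6596 and 5354 to 5674 CPM. The 3 basal mammary markers summed to 963.85 to 1239.5, 1072 to 1111 and 1853 to 1992 CPM. The part of these marker levels in the results was not tested. MCF10A replicate 1 stood apart from the other MCF10A libraries, with a chi-square of 31.2 and 72.7 per degree of freedom when compared with replicates 2 and 3, which gave 11.4 between themselves. It held the highest MCF10A value of 9 of the 10 genes, SMARCD3 being the exception, and results that turn on it are given with and without it. The 3 comparisons between lines share libraries, so their changes are given side by side and not as independent evidence. Levels of a gene across lines are given in CPM, the count as a share of the TMM-scaled library size, and levels of different genes are compared in TPM, which are per length. Gene positions are on GRCh38, from GENCODE 29.

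**Figure D1:**
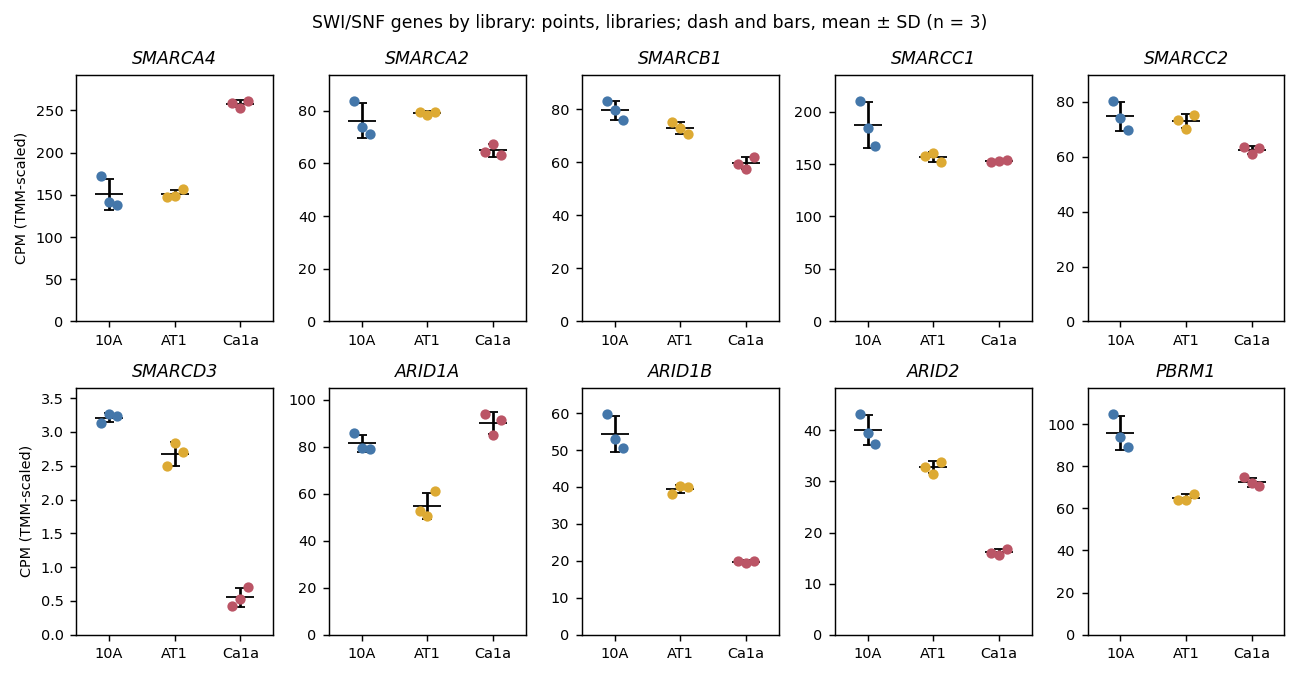
Level of each SWI/SNF gene in CPM (vertical axis, from 0) in the 3 libraries of MCF10A (10A), MCF10AT1 (AT1) and MCF10Ca1a (Ca1a), with the mean and SD (n = 3). SMARCA4 lay between 253 and 261 CPM in the MCF10Ca1a libraries, and ARID1B, ARID2 and SMARCD3 were lowest there.

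Between MCF10AT1 and MCF10A, 5 of the 10 genes passed edgeR's quasi-likelihood test at a Benjamini-Hochberg adjusted p of 0.05, 0 higher and 5 lower in MCF10AT1. These were ARID1A, ARID1B, ARID2, PBRM1 and SMARCC1. Of all genes tested, 61.6% were called in this comparison, 29.8% higher and 31.8% lower, so the share called among the 10 was below the background. The libraries of these lines did not overlap in 7 of the 10 genes, against 65.4% of all genes. The median log2 change was -0.26 over the 10 genes and -0.00 over all genes.

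Between MCF10Ca1a and MCF10A, 9 of the 10 genes passed, 1 higher (SMARCA4) and 8 lower, all but ARID1A. The background was 80.9% of genes called, with 39% higher and 41.9% lower, and the libraries did not overlap in 9 of the 10 genes against 81.5% of all genes. The median log2 change was -0.35 over the 10 genes and -0.05 over all genes.

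Between MCF10Ca1a and MCF10AT1, 9 of the 10 passed, 3 higher (SMARCA4, ARID1A and PBRM1) and 6 lower, all but SMARCC1. The background was 78.4% of genes called, with 38% higher and 40.3% lower, and the libraries did not overlap in 9 of the 10 genes against 81.9%. The median log2 change was -0.25 over the 10 genes and -0.04 over all genes, and on log2(TPM + 1) these were -0.021 and 0.13. In both comparisons with MCF10Ca1a most of the genes tested were called, so a call alone did not set a SWI/SNF gene apart, and the sizes below carry the description. The median absolute log2 change of the 10 genes was 0.41 against MCF10A and 0.51 against MCF10AT1, compared with 0.84 and 0.76 over all genes.

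**Figure D2:**
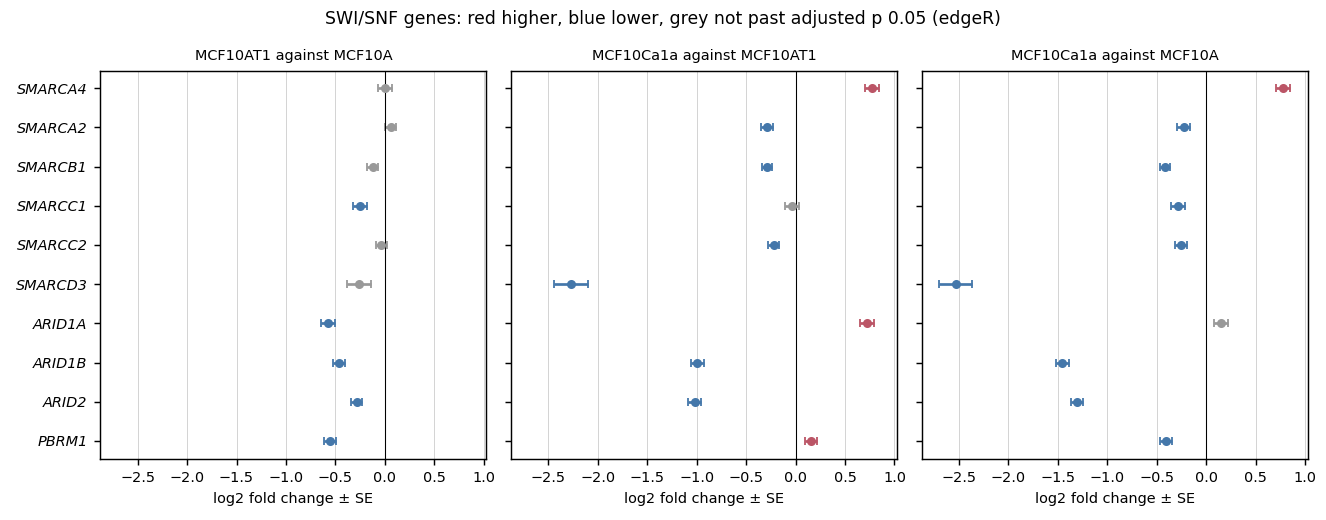
Log2 fold change with its standard error (horizontal axis) of the 10 SWI/SNF genes in each comparison, from edgeR. Calls are red (higher), blue (lower) or grey (not past the threshold). The falls of SMARCD3, ARID1B and ARID2 in MCF10Ca1a were the largest, and SMARCA4 had the largest rise.

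The ATPase genes moved apart in MCF10Ca1a. SMARCA4 (ENSG00000127616.21, chr19:10960825-11079426, plus strand) had 172, 141 and 138 CPM in the MCF10A libraries, 148, 148 and 156 in MCF10AT1, while MCF10Ca1a had 259, 253 and 261. Every MCF10Ca1a library lay above all 6 others, and the other lines overlapped. SMARCA4 was 1.71-fold higher in MCF10Ca1a than in MCF10A (log2 change 0.78, SE 0.07, edgeR adjusted p 2.7e-07) and 1.71-fold higher than in MCF10AT1 (0.77, SE 0.07, adjusted p 3.1e-07). Between MCF10AT1 and MCF10A its log2 change was 0.00 (SE 0.07, edgeR adjusted p 0.98), and -0.11 on log2(TPM + 0.1). Without MCF10A replicate 1 that difference was 0.11 and passed the threshold (edgeR adjusted p 0.038).

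SMARCA2, the alternative ATPase (ENSG00000080503.25, chr9:1980290-2193624, plus strand), had 83.6, 73.6 and 71.0 CPM in MCF10A, 79.6, 78.4 and 79.4 in MCF10AT1, against 64.1, 67.5 and 63.1 in MCF10Ca1a. The MCF10Ca1a libraries were the lowest, with no overlap. Its log2 change was -0.23 (SE 0.06, edgeR adjusted p 0.0035) against MCF10A and -0.29 (SE 0.06, adjusted p 0.00071) against MCF10AT1. These modest falls did not pass on a log2(TPM + 1) scale, where limma gave -0.17 (adjusted p 0.18) and -0.18 (adjusted p 0.17), while with length-scaled counts the latter was -0.47. Against MCF10A, MCF10AT1 differed by 0.06 (SE 0.06, edgeR adjusted p 0.43), and by 0.13 (adjusted p 0.015) without MCF10A replicate 1.

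Promoter windows of 300 bases that span an annotated start are shown for the ATPase pair because their levels moved apart: for SMARCA4 the first along the chromosome of its 2 windows, and for SMARCA2 the first and the third of its 4, the latter picked after transcript values were seen. They come from RefSeq on GRCh38.p14, whose table held 15 windows for 7 of the 10 genes (not for ARID2, SMARCC1 or SMARCC2). Capitals mark matches on either strand to any of 8 motifs: the GC box GGGCGG, the E-box CACGTG, the ETS type CCGGAAG, the CRE TGACGTCA, the CCAAT box CCAAT, the E2F type TTTNGCGC, the AP-1 type TGANTCA, and an NRF1 type motif named here without its letters. Sequences run 5′ to 3′ on the plus strand.
SMARCA4 chr19:10960780-10961079: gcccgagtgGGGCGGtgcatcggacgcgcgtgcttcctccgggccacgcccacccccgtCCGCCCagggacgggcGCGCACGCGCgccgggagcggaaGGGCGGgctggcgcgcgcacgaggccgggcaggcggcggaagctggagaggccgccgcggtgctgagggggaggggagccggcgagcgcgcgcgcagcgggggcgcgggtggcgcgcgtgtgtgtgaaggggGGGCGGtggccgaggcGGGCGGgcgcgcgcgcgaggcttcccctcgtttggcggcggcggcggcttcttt
SMARCA2 upstream start chr9:2015097-2015396: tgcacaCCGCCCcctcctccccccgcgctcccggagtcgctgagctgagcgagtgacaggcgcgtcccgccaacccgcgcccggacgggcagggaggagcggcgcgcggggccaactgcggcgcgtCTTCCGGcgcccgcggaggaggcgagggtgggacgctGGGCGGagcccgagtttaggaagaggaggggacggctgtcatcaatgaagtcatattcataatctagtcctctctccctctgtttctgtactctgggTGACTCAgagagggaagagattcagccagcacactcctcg
SMARCA2 internal start chr9:2157412-2157711: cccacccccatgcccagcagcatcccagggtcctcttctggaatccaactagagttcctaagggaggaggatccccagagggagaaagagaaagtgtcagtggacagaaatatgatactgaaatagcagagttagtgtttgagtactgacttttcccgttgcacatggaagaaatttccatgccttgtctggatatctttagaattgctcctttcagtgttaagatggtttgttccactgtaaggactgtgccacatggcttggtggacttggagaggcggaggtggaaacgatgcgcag

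The SMARCA4 window shown held 5 GC box matches and 1 NRF1 type match, with a GC content of 81.3% and 55 CpG dinucleotides. The upstream SMARCA2 window shown held 2 GC box matches, 1 ETS type match and 1 AP-1 match, with a GC content of 66.7% and 30 CpG. The internal SMARCA2 window shown held no match, with a GC content of 48.7% and 4 CpG. The windows not shown, 1 of SMARCA4 (57% GC, 5 CpG) and 2 of SMARCA2 (43% GC each, 3 and 9 CpG), held no match either. Over all 35116 windows of the table the median was 58.7% GC and 14 CpG. A GC box match was present in 45.0% of them, an NRF1 type match in 5.78%, an ETS type match in 10.3% and an AP-1 match in 7.71%. These matches describe letters in the window and not occupancy.

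Both kinds of SMARCA2 start had reads in every line. Transcripts that begin at the internal starts, a grouping chosen after the values were seen, took 17.1%, 19.7% and 19.3% of the SMARCA2 counts in MCF10A, 23.4%, 23.9% and 20.0% in MCF10AT1, while MCF10Ca1a had 16.3%, 17.5% and 18.5%. The MCF10AT1 libraries were the highest and did not overlap those of the other lines, which overlapped each other. The annotated internal-start coding transcripts ENST00000302401.8 and ENST00000324954.10 encode a short C-terminal part of the protein without the ATPase domain. Transcripts of SMARCA2 absent from GENCODE 29 took between 0.721% and 26.0% of its counts by library and were put in neither group.

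Of the core subunit genes among the 10, SMARCB1, SMARCC1 and SMARCC2 changed by less than SMARCD3 in MCF10Ca1a. SMARCB1, the core subunit that holds the complex on the nucleosome (ENSG00000099956.20, chr22:23786931-23838008, plus strand), had 83.1, 79.8 and 75.8 CPM in MCF10A, 75.3, 73.0 and 70.6 in MCF10AT1, against 59.6, 57.5 and 61.9 in MCF10Ca1a. The 3 lines were separate in CPM, with MCF10A highest and MCF10Ca1a lowest. SMARCB1 fell 1.33-fold in MCF10Ca1a against MCF10A (log2 change -0.42, SE 0.05, edgeR adjusted p 6.0e-06). The value was -0.29 against MCF10AT1 (SE 0.05, edgeR adjusted p 0.00019). On a log2(TPM + 1) scale that second difference was -0.00 (limma adjusted p 0.97). The difference between MCF10AT1 and MCF10A was -0.12 (SE 0.05, edgeR adjusted p 0.052), just outside the threshold, and passed without MCF10A replicate 3 (-0.16, adjusted p 0.016) with DESeq2 (-0.13, adjusted p 0.040) and on log2(TPM + 1) (-0.33, limma adjusted p 0.0099).

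SMARCC1, a scaffold subunit (ENSG00000173473.11, chr3:47585272-47782106, minus strand), had 210, 184 and 167 CPM in MCF10A, 158, 161 and 152 in MCF10AT1, while MCF10Ca1a had 152, 153 and 154. The MCF10A libraries were the highest and the other lines overlapped. SMARCC1 was lower by -0.26 in MCF10AT1 (SE 0.07, edgeR adjusted p 0.0065) and by -0.29 in MCF10Ca1a (SE 0.07, adjusted p 0.0019), both on the log2 scale and against MCF10A. The MCF10Ca1a difference was -0.05 on the log2(TPM + 1) scale (limma adjusted p 0.69), and the MCF10AT1 difference did not pass on that scale without the filter (-0.33, adjusted p 0.057). Between MCF10Ca1a and MCF10AT1 the direction turned with the scale, from -0.03 in CPM (edgeR adjusted p 0.67) to 0.28 on log2(TPM + 1) (limma adjusted p 0.030).

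SMARCC2, the other scaffold subunit (ENSG00000139613.12, chr12:56162983-56189567, minus strand), had 80.2, 74.2 and 69.7 CPM in MCF10A, 73.2, 70.1 and 75.3 in MCF10AT1, against 63.7, 60.8 and 63.0 in MCF10Ca1a. MCF10Ca1a was lowest without overlap, with a log2 change of -0.26 against MCF10A (SE 0.06, edgeR adjusted p 0.00098) and -0.22 against MCF10AT1 (SE 0.06, adjusted p 0.0031). Neither passed on log2(TPM + 1), where limma gave -0.14 (adjusted p 0.36) and -0.04 (adjusted p 0.82). SMARCC2 overlaps MYL6, a myosin light chain gene on the opposite strand with up to 73863 counts. Its estimated counts were not whole numbers in 9 of 9 libraries at a tolerance of 0.01, whereas those of the other 9 genes were whole in every library. The libraries were made with a stranded kit, the strand setting of the quantification is not given in the sources used here, and the part of this overlap in the SMARCC2 values was not tested.

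SMARCD3, a BAF60 family subunit best known from heart and muscle (ENSG00000082014.17, chr7:151238764-151277896, minus strand), was the least abundant of the 10 genes and fell most. Its CPM were 3.13, 3.26 and 3.24 in MCF10A, 2.49, 2.84 and 2.71 in MCF10AT1, while MCF10Ca1a had 0.419, 0.535 and 0.705. These rest on 201 to 226 counts per library in MCF10A, 166 to 188 in MCF10AT1, against 15, 18 and 25 in MCF10Ca1a. The 3 lines did not overlap. SMARCD3 was 5.79-fold lower in MCF10Ca1a than in MCF10A (log2 change -2.53, SE 0.17, edgeR adjusted p 5.0e-09) and 4.83-fold lower than in MCF10AT1 (-2.27, SE 0.17, adjusted p 2.3e-08). The MCF10AT1 difference from MCF10A was -0.26 (SE 0.13, edgeR adjusted p 0.086) and passed on log2(TPM + 1) (-0.30, limma adjusted p 0.010). On log2(TPM + 1), which understates changes of low genes, the MCF10Ca1a differences were -1.21 and -0.91. SMARCD3 overlaps CHPF2 on the opposite strand, which had up to 3251 counts.

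The ARID genes of canonical BAF fell together in MCF10AT1 and parted in MCF10Ca1a. ARID1A (ENSG00000117713.21, chr1:26693236-26782110, plus strand), the DNA-binding subunit most often mutated in tumours, had 85.7, 79.5 and 79.2 CPM in MCF10A, 52.6, 50.4 and 61.1 in MCF10AT1, while MCF10Ca1a had 93.8, 84.9 and 91.5. All MCF10AT1 libraries lay below the others, and MCF10A and MCF10Ca1a overlapped. ARID1A was 1.49-fold lower in MCF10AT1 than in MCF10A (log2 change -0.58, SE 0.07, edgeR adjusted p 8.6e-06). It was 1.65-fold higher in MCF10Ca1a than in MCF10AT1 (0.72, SE 0.07, edgeR adjusted p 4.4e-07). The 0.15 difference between MCF10Ca1a and MCF10A did not pass (SE 0.07, edgeR adjusted p 0.072). It passed without MCF10A replicate 1 (0.17, adjusted p 0.034), without MCF10AT1 replicate 3 (0.13, 0.040) and without MCF10Ca1a replicate 2 (0.19, 0.047), in the same edgeR test, and with DESeq2 (0.18, adjusted p 0.024). It was smaller and did not pass with length-scaled counts (0.033, edgeR adjusted p 0.67), scaled counts (0.041, 0.62) or no filter (0.070, 0.38).

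ARID1B, the paralog that can take the place of ARID1A (ENSG00000049618.25, chr6:156776020-157210779, plus strand), had 59.7, 52.9 and 50.5 CPM in MCF10A, 38.1, 40.2 and 40.1 in MCF10AT1, against 20.0, 19.4 and 20.1 in MCF10Ca1a. The 3 lines formed separate steps. ARID1B was 1.38-fold lower in MCF10AT1 than in MCF10A (log2 change -0.46, SE 0.06, edgeR adjusted p 1.6e-05). It was 2.74-fold lower in MCF10Ca1a than in MCF10A (-1.45, SE 0.07, adjusted p 7.2e-11) and 1.99-fold lower than in MCF10AT1 (-0.99, SE 0.07, adjusted p 5.8e-09), in the same edgeR test. The fall from MCF10AT1 to MCF10Ca1a was smaller on the TPM scale, at -0.44 on log2(TPM + 1), with mean TPM of 12.8, 8.04 and 5.68 in MCF10A, MCF10AT1 and MCF10Ca1a.

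The promoter windows of the ARID1 pair, shown because these paralogs differ in direction in MCF10Ca1a, were marked in the same way and run 5′ to 3′ on the plus strand.
ARID1A chr1:26695765-26696064: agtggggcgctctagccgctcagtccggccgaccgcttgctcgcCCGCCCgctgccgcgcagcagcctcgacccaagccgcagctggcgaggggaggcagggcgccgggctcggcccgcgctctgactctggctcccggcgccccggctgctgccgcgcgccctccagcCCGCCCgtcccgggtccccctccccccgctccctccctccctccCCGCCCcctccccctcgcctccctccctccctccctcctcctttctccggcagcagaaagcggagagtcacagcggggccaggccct
ARID1B chr6:156777128-156777427: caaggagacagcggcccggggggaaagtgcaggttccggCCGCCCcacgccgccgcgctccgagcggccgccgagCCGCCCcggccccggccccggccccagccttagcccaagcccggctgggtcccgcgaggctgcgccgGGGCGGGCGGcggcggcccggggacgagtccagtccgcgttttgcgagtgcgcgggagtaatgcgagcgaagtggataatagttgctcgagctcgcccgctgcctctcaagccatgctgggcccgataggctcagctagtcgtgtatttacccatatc

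Both windows held GC box matches and none of the other 7 motifs, with 3 matches in ARID1A and 4 in ARID1B, of which a pair overlaps. GC content was 78% with 33 CpG in ARID1A and 72% with 39 CpG in ARID1B. Neither window spans the start of the gene's transcript with the highest mean share. Those starts are chr1:26729657 for ARID1A (ENST00000636219.1) and chr6:156779433 for ARID1B (ENST00000414678.7). A second annotated ARID1B window, chr6:156775776-156776075, had 37.7% GC and 5 CpG, and held 1 CCAAT box match and no other match.

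The PBAF genes ARID2 and PBRM1 fell together in MCF10AT1 and differed in MCF10Ca1a. ARID2, the ARID subunit of PBAF (ENSG00000189079.18, chr12:45729665-45908040, plus strand), had 43.1, 39.5 and 37.3 CPM in MCF10A, 32.9, 31.5 and 33.9 in MCF10AT1, while MCF10Ca1a had 16.0, 15.6 and 16.8. The 3 lines did not overlap, and ARID2, like ARID1B, was lower at each step. ARID2 was 1.22-fold lower in MCF10AT1 than in MCF10A (log2 change -0.29, SE 0.06, edgeR adjusted p 0.00077). In MCF10Ca1a it was 2.47-fold lower than in MCF10A (-1.31, SE 0.06, adjusted p 1.9e-10) and 2.03-fold lower than in MCF10AT1 (-1.02, SE 0.06, adjusted p 3.7e-09) by edgeR, the latter being -0.65 on log2(TPM + 1).

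PBRM1, a PBAF subunit with a series of acetyl-lysine binding bromodomains (ENSG00000163939.19, chr3:52545352-52685917, minus strand), had 105, 93.8 and 88.9 CPM in MCF10A, 64.0, 64.2 and 66.8 in MCF10AT1, against 74.7, 72.2 and 70.4 in MCF10Ca1a. The lines did not overlap, with MCF10A highest and MCF10AT1 lowest. PBRM1 was 1.47-fold lower in MCF10AT1 than in MCF10A (log2 change -0.56, SE 0.06, edgeR adjusted p 2.4e-06) and 1.32-fold lower in MCF10Ca1a (-0.40, SE 0.06, adjusted p 3.0e-05). The MCF10Ca1a fall was -0.22 and did not pass on unfiltered log2(TPM + 1) (limma adjusted p 0.083). The rise of 0.16 between MCF10AT1 and MCF10Ca1a passed narrowly (SE 0.06, edgeR adjusted p 0.031). It did not pass without MCF10A replicate 2, without any 1 of the MCF10AT1 libraries, or without MCF10Ca1a replicate 1 or 2, with adjusted p between 0.051 and 0.13, nor without the filter on low counts (0.07, adjusted p 0.41). In TPM the rise was larger, at 0.46 on log2(TPM + 1) and 0.49 on log2(TPM + 0.1) (limma adjusted p 0.0010 and 0.00081). PBRM1 overlaps GNL3, a nucleolar protein gene on the opposite strand with up to 16185 counts.

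In TPM, which allow genes to be compared, SMARCB1 and SMARCC1 were the most abundant of the 10 in MCF10A, at 55.1 ± 6.73 and 40.3 ± 7.11 (mean ± SD, n = 3). SMARCA2 and SMARCA4 followed at 31.3 ± 5.47 and 31.3 ± 5.65 and did not differ beyond their spread. PBRM1 at 23.0 ± 3.20 and SMARCC2 at 22.1 ± 4.86 came next and overlapped, as did ARID1A at 13.3 ± 0.964 and ARID1B at 12.8 ± 1.62. ARID2 stood at 8.29 ± 0.838 and SMARCD3 at 2.38 ± 0.127. In MCF10Ca1a SMARCA4 was the most abundant, at 59.2 ± 1.67, above SMARCB1 at 43.3 ± 2.52 and SMARCC1 at 38.6 ± 0.870. There SMARCA2 stood at 27.5 ± 2.40, ARID1A at 15.2 ± 0.409, ARID1B at 5.68 ± 0.438, ARID2 at 3.67 ± 0.118 and SMARCD3 at 0.460 ± 0.141.

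Ratios between paralogous subunit genes, or between genes that mark different complexes, were taken per library as log2 ratios of TPM. The ratio cancels the scaling of a library, so it does not depend on the choice between CPM normalisations. Each of 5 ratios was tested over the 3 lines with an exact permutation test over 1680 assignments, adjusted by Benjamini-Hochberg over the 5. Pairs of lines are described without a p, since 3 against 3 libraries cannot go below 0.1.

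SMARCA4 and SMARCA2 were about equal in MCF10A, with TPM ratios of 1.01, 0.969 and 1.02, and in MCF10AT1, with 0.899, 0.899 and 0.976. In MCF10Ca1a the ratios were 2.35, 1.94 and 2.21, above all 6 others. The mean log2 ratio was -0.00 ± 0.04, -0.11 ± 0.07 and 1.11 ± 0.14 (SD, n = 3) in the order of the lines (exact permutation p 0.0071, adjusted 0.022).

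ARID1A and ARID1B were likewise near parity in MCF10A, at 0.983, 1.04 and 1.09, and in MCF10AT1, at 0.984, 0.838 and 1.07. In MCF10Ca1a ARID1A exceeded ARID1B by 2.57, 2.56 and 2.91 times. The mean log2 ratios were 0.05 ± 0.08, -0.06 ± 0.18 and 1.42 ± 0.10 (SD, n = 3; exact permutation p 0.018, adjusted 0.022). MCF10A and MCF10AT1 overlapped, and all MCF10Ca1a libraries lay above both.

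The SMARCC1 to SMARCC2 ratio differed less, at 0.87 ± 0.07, 0.65 ± 0.09 and 0.97 ± 0.15 on the log2 scale (SD, n = 3; exact permutation p 0.018, adjusted 0.022). MCF10AT1 was lowest and did not overlap the other lines, which overlapped each other. Its test was lost without MCF10AT1 replicate 1 or without MCF10Ca1a replicate 2 (exact permutation, adjusted p 0.068 and 0.061). SMARCC2 overlaps MYL6, as described above.

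SMARCD1, the BAF60 paralog of SMARCD3, exceeded it in every library, by 15.5 to 19.1 times in MCF10A, 14.9 to 16.9 times in MCF10AT1 and, at the top, 28.5 to 51.6 times in MCF10Ca1a. The mean log2 ratios were 4.05 ± 0.17, 3.96 ± 0.11 and 5.29 ± 0.43 (SD, n = 3; exact permutation p 0.018, adjusted 0.022). With 1 TPM added to each gene, the difference between MCF10Ca1a and MCF10A fell from 1.23 to 0.081 and the test was lost (exact permutation, adjusted p 0.068). SMARCD3 was below 1 TPM in MCF10Ca1a.

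PBRM1 relative to ARID1A, a ratio of a PBAF gene to a canonical BAF gene, was 0.79 ± 0.09 in MCF10A, 0.84 ± 0.12 in MCF10AT1 and 0.36 ± 0.06 in MCF10Ca1a on the log2 scale (SD, n = 3; exact permutation p 0.025, adjusted 0.025). The MCF10Ca1a libraries, at TPM ratios of 1.34, 1.27 and 1.23, lay below all others, which ran from 1.64 to 1.94.

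**Figure D3:**
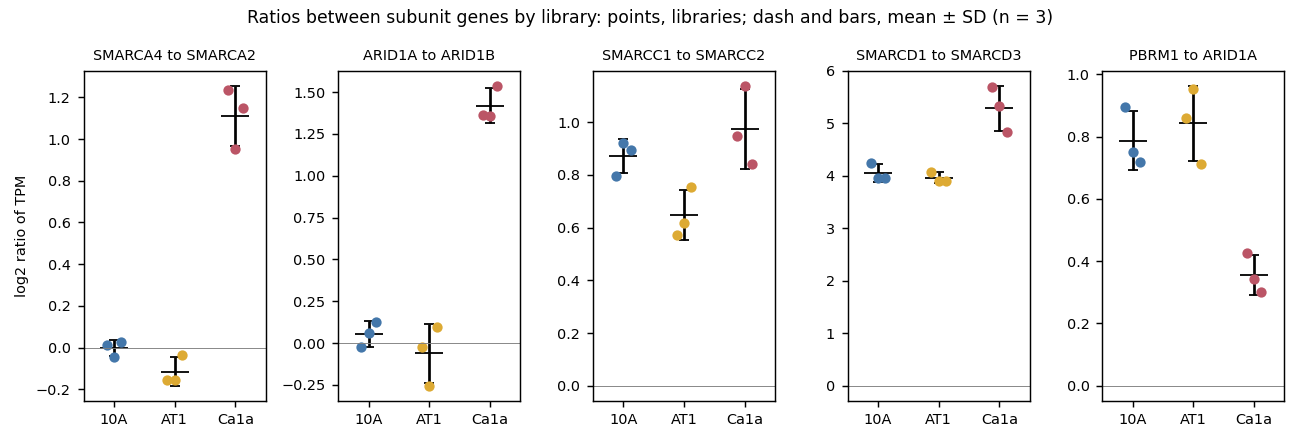
Log2 ratio of TPM (vertical axes, which differ in range) between pairs of SWI/SNF genes in each library of MCF10A (10A), MCF10AT1 (AT1) and MCF10Ca1a (Ca1a), with mean and SD (n = 3). The SMARCA4 to SMARCA2 and ARID1A to ARID1B ratios lay near 0 in the first pair of lines and above 0.9 in every MCF10Ca1a library.

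The transcript make-up of the 10 genes was compared through the share of each transcript in the counts of its gene. Of 136 transcripts tested, limma with Benjamini-Hochberg adjustment over 77143 transcripts called 0 between MCF10AT1 and MCF10A, against a background of 2.31%. An unadjusted limma p under 0.05 was found there for 9 of the 136 and for 11447 of all 77143 transcripts. With adjustment, limma called 11 (8.09%) between MCF10Ca1a and MCF10A against a background of 18.7%, and 10 (7.35%) between MCF10Ca1a and MCF10AT1 against 14.1%. The last count was 4 with the replicate number as a block and 5, 6 and 4 without MCF10AT1 replicates 1, 2 and 3. Over all genes the block gave 7065 in place of 10843 called transcripts there, and 653 in place of 1785 between MCF10AT1 and MCF10A. The share of these transcripts called was thus below that of all transcripts. The shares are estimates, and no error of the read assignment entered the test.

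In percentage points of a gene's counts, the largest difference among these transcripts was in ARID1B. ENST00000636254.1, an ARID1B transcript annotated as a retained intron (4 exons, chr6:157198509-157208700, plus strand), took 6.81%, 9.48% and 8.47% of the ARID1B counts in MCF10A, 8.39%, 6.89% and 6.63% in MCF10AT1, against 32.1%, 37.7% and 36.8% in MCF10Ca1a. All MCF10Ca1a libraries lay above all others. On the log2 ratio to the other ARID1B transcripts the difference was 2.62 against MCF10A (limma adjusted p 0.00013) and 2.81 against MCF10AT1 (adjusted p 0.00013). Its own level was 4.07, 5.01 and 4.27 CPM in MCF10A, 3.20, 2.77 and 2.66 in MCF10AT1, while MCF10Ca1a had 6.40, 7.33 and 7.38, so it was highest where the ARID1B total was lowest.

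The start of this transcript is shown because it is the only part of it outside the exons of the main coding transcript. Its first 302 bases, chr6:157198509-157198810, are intronic in ENST00000414678.7, the ARID1B transcript with the highest mean share, and the other 3546 of its 3848 bases lie in exons of that transcript. The last 60 retained bases are in capitals and the first 40 bases of the following exon in lower case, 5′ to 3′ on the plus strand, from the GENCODE 29 transcript sequence on GRCh38.
ARID1B chr6:157198751-157198850: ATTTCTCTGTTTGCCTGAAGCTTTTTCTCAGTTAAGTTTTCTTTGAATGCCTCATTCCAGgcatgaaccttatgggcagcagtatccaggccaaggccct

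The capitals end in AG, the letters at the end of most introns. Reads from the shared bases can be divided between these transcripts only by the estimate of the quantification tool.

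The main coding ARID1B transcript ENST00000414678.7 took 37.5%, 28.0% and 37.0% of the counts in MCF10A, 37.6%, 35.3% and 28.97% in MCF10AT1, against 6.69%, 14.2% and 24.0% in MCF10Ca1a. It was lowest in MCF10Ca1a without overlap but did not pass (limma adjusted p 0.054 and 0.065). A pair of other ARID1B retained-intron transcripts moved the opposite way from ENST00000636254.1. ENST00000636940.1 averaged 3.19% in MCF10A and 2.99% in MCF10AT1 and was listed at 0 in MCF10Ca1a, and ENST00000636227.1 fell from 0.971% in MCF10A to 0.0900% in MCF10Ca1a (limma adjusted p 0.00070 and 0.024 against MCF10A).

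Summed over annotated classes, a grouping made after the values were seen, protein-coding ARID1B transcripts had 50.6, 40.8 and 39.5 CPM in MCF10A, 31.4, 34.3 and 32.5 in MCF10AT1, while MCF10Ca1a had 12.2, 11.3 and 11.9. The retained-intron ARID1B transcripts had 6.70, 9.18 and 7.54 CPM, then 5.05, 4.47 and 6.10, then 7.0, 7.98 and 7.64. The coding class thus showed 3 separate steps, while the retained-intron class overlapped between MCF10A and MCF10Ca1a. As a share of ARID1B counts the retained-intron class stood at 14.5% ± 3.09, 13.2% ± 2.04 and 38.1% ± 3.00 (SD, n = 3). Over all genes that class took 3.18% ± 0.335, 3.30% ± 0.126 and 3.14% ± 0.0844. In ARID1A the same class took 3.72% ± 1.36, 2.43% ± 0.254 and 1.79% ± 0.746.

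**Figure D4:**
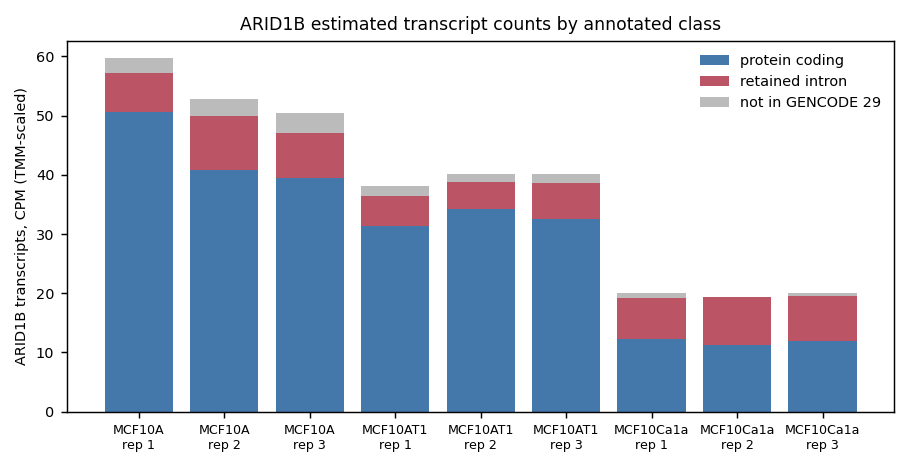
Estimated ARID1B transcript counts in CPM (vertical axis) per library, stacked by the class that GENCODE 29 gives each transcript. The coding part shrank from at least 39.5 CPM in MCF10A to at most 12.2 CPM in MCF10Ca1a, while the retained-intron part stayed between 4.47 and 9.18 CPM in all 9 libraries.

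SMARCC1 and SMARCD3 held the other called transcripts whose mean share differed by at least 10 percentage points. The main SMARCC1 coding transcript, ENST00000254480.10, took 97.6%, 99.4% and 99.5% of the counts in MCF10A, 98.9%, 96.3% and 98.9% in MCF10AT1, against 89.0%, 87.8% and 89.4% in MCF10Ca1a. Every MCF10Ca1a library was below all others (limma adjusted p 0.0090 against MCF10A and 0.034 against MCF10AT1). The call against MCF10AT1 was lost without MCF10AT1 replicate 1 or 3, without any 1 of the MCF10Ca1a libraries, and with the replicate block (limma adjusted p 0.074 to 0.10). A noncoding SMARCC1 transcript, ENST00000425518.5, averaged 0.607% in MCF10A and 10.4% in MCF10Ca1a, but did not itself pass (limma adjusted p 0.11). In SMARCD3 the transcript ENST00000262188.13, which begins at a start downstream of that of the main transcript, took 12.8%, 34.4% and 7.33% in MCF10A and was listed at 0 in all MCF10Ca1a libraries. With at most 25 SMARCD3 counts in a MCF10Ca1a library, that absence is limited by depth, and its call was lost when any of 6 libraries was left out.

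The other called transcripts moved by under 10 percentage points, and those described here were picked after their values were seen. ENST00000704355.1, a SMARCA2 transcript outside GENCODE 29, took 9.19%, 11.9% and 6.93% of SMARCA2 counts in MCF10A and 3.74%, 9.23% and 3.32% in MCF10AT1, and was listed at 0 in all MCF10Ca1a libraries (limma adjusted p 2.8e-05 and 6.1e-05 for MCF10Ca1a against these lines). MCF10A and MCF10AT1 overlapped. Single transcripts of PBRM1 and SMARCB1 and 3 more of SMARCA2 were also called in at least 1 comparison with MCF10Ca1a, with shares of at most 6.60% in any line. ENST00000642628.1, which begins in the SMARCA4 promoter window shown above, took 1.84%, 2.26% and 2.04% of SMARCA4 counts in MCF10A, 4.95%, 4.42% and 2.86% in MCF10AT1, while MCF10Ca1a had 4.63%, 7.17% and 11.9% (limma adjusted p 0.015 for MCF10Ca1a against MCF10A). Every MCF10A library was below the others, and MCF10AT1 and MCF10Ca1a overlapped. ENST00000643296.1, which begins at the same base, took 13.8%, 17.6% and 15.8% in MCF10A, 11.95%, 16.5% and 12.4% in MCF10AT1 and, lowest without overlap, 10.9%, 9.38% and 9.85% in MCF10Ca1a (limma adjusted p 0.037 for MCF10Ca1a against MCF10A). ENST00000647268.1, which begins within the gene, averaged 4.34% in MCF10A and 3.67% in MCF10AT1 and was listed at 0 in all MCF10Ca1a libraries, where the gene as a whole was highest (limma adjusted p 1.3e-05 and 1.9e-05).

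For 9 of the 10 genes, all but SMARCC1, the transcript with the highest mean share over the 9 libraries was called in none of the 3 comparisons. ENST00000334344.11 held 95.7%, 93.0% and 92.6% of ARID2 in the order of the lines. ENST00000407422.8 held 82.8%, 82.5% and 86.5% of SMARCB1, and ENST00000550164.6 held 62.5%, 71.3% and 69.3% of SMARCC2. ENST00000356770.8 held 52.2%, 52.5% and 53.7% of PBRM1, and ENST00000636219.1 held 48.0%, 50.1% and 47.9% of ARID1A. These are means over 3 libraries, and a missed threshold does not show that the shares were equal. ENST00000349721.8 held 40.1%, 30.6% and 45.3% of SMARCA2, and ENST00000356800.6 held 54.6%, 45.9% and 66.4% of SMARCD3. For SMARCA4, ENST00000645460.1 held 22.7%, 24.0% and 29.7%, and ENST00000647230.1 held more in MCF10A and MCF10AT1 but less in MCF10Ca1a, at 31.6%, 27.8% and 16.4%, and was not called either (limma adjusted p 0.097 for MCF10Ca1a against MCF10A). In ARID1A, ENST00000324856.13 was close to the transcript named above, at 47.7%, 46.9% and 49.6%.

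The 19 other listed SWI/SNF subunit genes, chosen with earlier results of these data known, included 18 that were tested. ACTL6B, the neuronal actin-related subunit, was at 0 in all 9 libraries. Between MCF10AT1 and MCF10A 14 were called, 5 higher and 9 lower, against 61.6% of all genes tested. Between MCF10Ca1a and MCF10A all 18 were called, 7 higher and 11 lower, against 80.9%, and between MCF10Ca1a and MCF10AT1 17 were called, 6 higher and 11 lower, against 78.4%. The median log2 changes of the list were -0.16, -0.57 and -0.41 in these comparisons.

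The noncanonical BAF genes were higher in MCF10Ca1a, 3 of 3 against either other line, where 39% (against MCF10A) and 38% (against MCF10AT1) of all genes tested were called higher. The grouping by complex, here and below, was made after the values were seen. BRD9, its bromodomain subunit, was 1.46-fold higher than in MCF10A and 1.87-fold higher than in MCF10AT1 (edgeR adjusted p 6.9e-08 and 4.7e-10). BICRA rose 1.96-fold and its paralog BICRAL 1.42-fold against MCF10A (edgeR adjusted p 4.1e-08 and 0.00013). In MCF10AT1 against MCF10A they did not move together, with BICRA higher and BRD9 and BICRAL lower.

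Among the remaining PBAF genes the bromodomain subunit BRD7 rose 1.38-fold in MCF10Ca1a against MCF10A and the PHD finger subunit PHF10 fell 1.46-fold (edgeR adjusted p 8.5e-06 and 4.1e-06). Of the 4 PBAF genes, ARID2, PBRM1 and PHF10 were thus lower and BRD7 higher in that comparison. Of the DPF genes of canonical BAF, DPF2 rose 1.52-fold and DPF1 fell by 0.59 on the log2 scale (edgeR adjusted p 5.0e-07 and 0.019). DPF1 rested on 52 to 67 counts per library in MCF10A and 18 to 24 in MCF10Ca1a. Its fall was not seen in TPM, with means of 0.460 in MCF10A and 0.472 in MCF10Ca1a. DPF3 was counted 51, 54 and 55 times in MCF10A, 19, 17 and 29 times in MCF10AT1, then 1, 0 and 0 times in MCF10Ca1a.

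Among genes that accompany the ATPase, SS18 fell 2.79-fold and BCL7A 4.89-fold in MCF10Ca1a against MCF10A, while SS18L1, the paralog of SS18, rose 1.64-fold (edgeR adjusted p 7.1e-12, 2.0e-12 and 2.0e-06). BCL7A had 30.5 ± 2.21, 16.9 ± 0.235 and 6.23 ± 0.379 CPM (mean ± SD, n = 3) in the order of the lines. Of the core genes outside the 10, SMARCE1 fell 1.80-fold and SMARCD1 2.17-fold, and SMARCD2 rose 1.15-fold (edgeR adjusted p 2.6e-09, 6.5e-10 and 0.0073). Counting members and other subunits, 6 of 7 core genes and 7 of 9 tested ATPase-module genes were lower in MCF10Ca1a than in MCF10A, against 41.9% of all genes tested, a grouping by complex made after the values were seen.

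**Figure D5:**
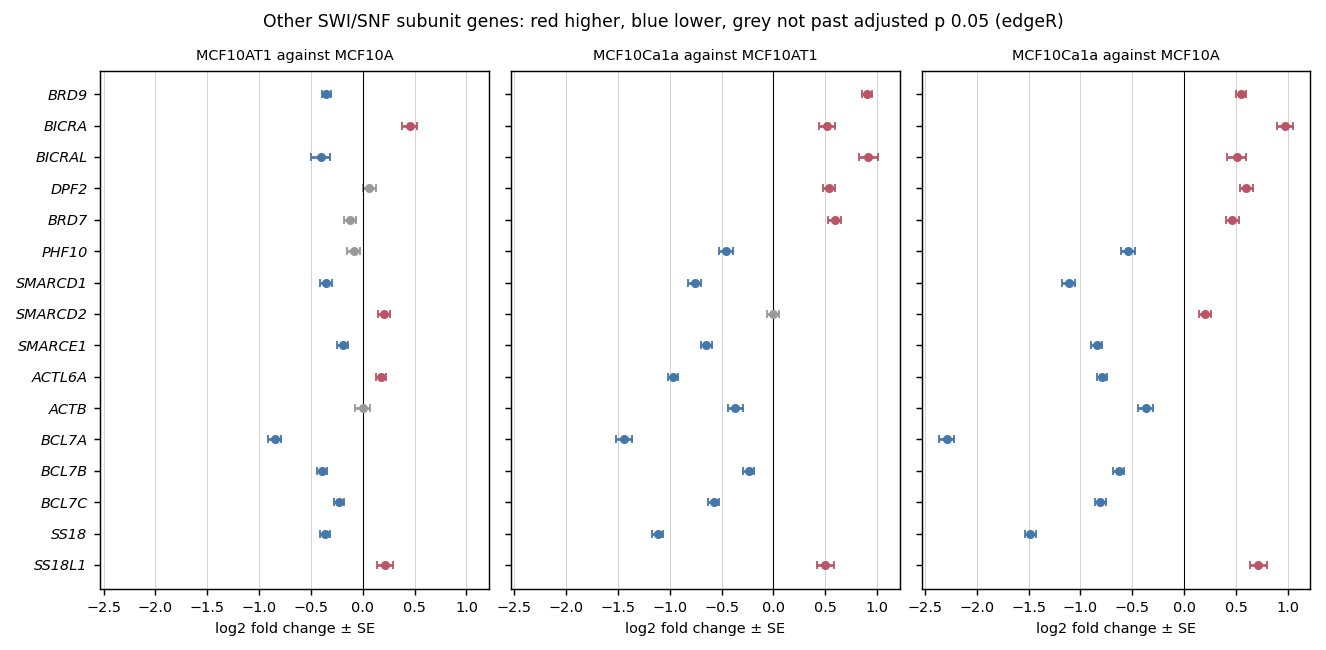
Log2 fold change with its standard error (horizontal axis) of 16 other SWI/SNF subunit genes in each comparison, from edgeR, with calls in red (higher), blue (lower) or grey (not past the threshold). BRD9, BICRA and BICRAL were higher in both MCF10Ca1a comparisons, and BCL7A and SS18 were lower in all 3. DPF1, DPF3 and ACTL6B, with few or no counts, are left out.

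Of 19 ATPase genes of other remodeler families, 15 were called between MCF10AT1 and MCF10A, 3 higher and 12 lower, against 61.6% of all genes tested. Between MCF10Ca1a and MCF10A 16 were called, 8 in each direction, against 80.9%, and between MCF10Ca1a and MCF10AT1 17, 14 higher and 3 lower, against 78.4%. SMARCA4 thus rose between MCF10AT1 and MCF10Ca1a alongside most of these genes. Among those with at least 100 counts, CHD2 rose most there (2.14-fold, edgeR adjusted p 1.1e-09) and also against MCF10A (2.83-fold, adjusted p 3.4e-11). CHD1L fell 3.35-fold in MCF10Ca1a against MCF10A (edgeR adjusted p 3.7e-12), and 1.61-fold against MCF10AT1 (8.8e-08). Between MCF10AT1 and MCF10A, SMARCA1 fell 2.40-fold and CHD7 rose 1.59-fold (edgeR adjusted p 4.0e-07 and 3.3e-07).

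The tested genes within 500 kb were compared with the SWI/SNF genes that changed most in MCF10Ca1a. Of all genes tested, 39% were called higher and 41.9% lower in MCF10Ca1a against MCF10A. Around ARID2, 4 of 7 neighbours were higher and 0 lower in MCF10Ca1a against MCF10A, with a median log2 change of 0.54 where ARID2 had -1.31. Around SMARCA4, 16 of 33 neighbours were higher and 13 lower, with a median of 0.13 where SMARCA4 had 0.78. Around ARID1B, 3 of 3 neighbours were lower, with a median of -0.38 where ARID1B had -1.45. Around SMARCD3, 12 of 17 were lower, with a median of -0.46 where SMARCD3 had -2.53.

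The genes whose pattern was nearest to SMARCD3, the member with the largest change, were CPQ, KCTD17 and MN1. Their root mean square distance from SMARCD3 in log2 CPM centred per gene over the 9 libraries was 0.14, 0.15 and 0.15, against a median of 1.19 over 17909 genes. CPQ had 2.84 to 3.41 CPM in MCF10A, 2.48 to 2.89 in MCF10AT1, against 0.363 to 0.592 in MCF10Ca1a, so it was, like SMARCD3, a gene of few counts whose MCF10Ca1a libraries were lowest.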

How the data were processed

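Polyadenylated RNA of 3 libraries per line was sequenced with a stranded kit, per the labels. Per the submitters' processing notes, Salmon and hg38 were used, in versions not given in the sources used here. The deposited gene and transcript tables hold estimated counts, and further deposited tables hold TPM and gene counts named scaled and length-scaled. Estimated counts were rounded and genes filtered with filterByExpr (minimum count 10, minimum total 15), leaving 17910. The test was edgeR's quasi-likelihood test (edgeR 4.0.16, R 4.3.3, TMM, all 9 libraries, Benjamini-Hochberg at 0.05). Transcript shares were tested with limma 3.58.1 on log2 odds, a transcript against all others of its gene (0.5 counts added, a mean of at least 10 counts in some line). TPM were tested with limma on log2(TPM + 1), which understates changes of low genes. Positions and classes came from GENCODE 29 by unversioned identifier.

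On simulated data edgeR recovered 166 of 200 changed genes with 13 false calls among 17306 genes for MCF10Ca1a against MCF10A. The share test recovered 189 of 200 genes there, with 51 transcripts falsely called.

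The 10 genes and the lists were chosen with earlier results of these data known. Any listed subunit could be named. Named by rule were the other remodeler with the largest rise and fall per comparison (no overlap, at least 100 counts), each gene's main transcript, transcripts called with a share difference of at least 10 points, and the 3 genes nearest to the member of largest change. Alternatives were DESeq2 (1.42.0) size factors and Wald test, no filter, the other count tables, TPM with 1 or 0.1 added, a replicate block, fits of only 2 lines, and leaving out each library.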

Additional observations from a re-analysis of the deposited data

How the results depend on the processing

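The lower depth of the MCF10Ca1a libraries (at most 35.2 M counts) limits SMARCD3, which had at most 25 counts there, and its transcripts. TPM with 0.1 added moved the median log2 change of all genes to 0.21 between MCF10Ca1a and MCF10AT1, from -0.04 in CPM. On TPM, SMARCC1 in that comparison turned to 0.28 with 1 added and 0.29 with 0.1 added (from -0.03). On unfiltered log2(TPM + 1), 5 of the 10 genes were called between MCF10Ca1a and MCF10A in place of 9. That setting tests more genes and the share called over all of them is not given here. The lower count therefore cannot be read as particular to the 10 genes. In CPM the SMARCC1 to SMARCC2 difference between MCF10Ca1a and MCF10A was -0.028 (0.10 in TPM), and with 1 TPM added the SMARCD1 to SMARCD3 difference was 0.081 (1.23 without). Leaving out each library gave 0.021 to 0.17 for the SMARCC1 to SMARCC2 difference, 0 to 1 called transcripts of the 10 genes between MCF10AT1 and MCF10A, 4 to 12 between MCF10Ca1a and MCF10AT1 (lowest without MCF10AT1 replicate 3), and 7140 to 10266 of all transcripts in the latter. The causes of these shifts were not tested. Replicate numbers are shared by the lines, but deviations of same-numbered libraries correlated between -0.0597 and 0.0451 and those of differently numbered libraries between -0.0742 and 0.0955, so not every library correlated best with its own number. With the replicate block, transcripts called were 653 in place of 1785 between MCF10AT1 and MCF10A and 7065 in place of 10843 between MCF10Ca1a and MCF10AT1 (4 in place of 10 from the 10 genes). The block changed no call of the 10 genes at the gene level. The calls of SMARCA4, ARID1B, ARID2 and SMARCD3 between MCF10Ca1a and either other line held under every alternative run.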
